A study of Mus musculus with 447 samples.

Results

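Isl1, Pax6, Nkx2-2, Insm1, Rfx6, Myt1 and St18 encode transcription factors that the hormone-producing cells of the pancreas share, whichever hormone they make. These 7 genes were chosen by name, from their known role, but with earlier results of these data known. All 7 were present among the 40818 genes counted in both matrices. Expression was measured by Smart-seq3, which reads the polyadenylated RNA of 1 sorted cell per well, in 447 cells of E15.5 mouse fetal pancreas. Each deposited sample was 1 cell. The cells labelled Pdx1CreNgn3KONeurod1OE (Ngn3KO below, 235 cells) were set against those labelled Pdx1CreNeurod1OE (Neurod1OE below, 212 cells), to ask what the endocrine programme driven by NeuroD1 looks like when Neurog3 (Ngn3) is deleted.

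Both genotypes carried forced expression of Neurod1 started by a Cre recombinase under the Pdx1 promoter, which is active in pancreatic progenitors. The series' design text calls the driver Pdx1CreER, the tamoxifen-inducible form, and the deleted allele Ngn3fl, and states that GFP-positive cells were sorted. The labels write Pdx1Cre. Reads of the introduced Neurod1 could not be separated here from those of the mouse's own gene. Titles divide the cells into a set 2 (322 cells, 63.7% of them Ngn3KO) and a set 3 (30 Ngn3KO and 95 Neurod1OE cells), with no word on the meaning of the set number. Wild-type cells were not analysed here.

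Neurog3 starts the endocrine programme in a short-lived progenitor, and NeuroD1 follows it. Insm1, a zinc-finger protein, Rfx6, a winged-helix factor, and the zinc-finger proteins Myt1 and St18 are known from the progenitor and precursor stages onward. The LIM-homeodomain factor Isl1 and the paired-homeodomain factor Pax6 come up as cells leave the cell cycle and mature, and mice without either make fewer hormone cells. Nkx2-2, a homeodomain factor, is present in early multipotent progenitors, and later in most endocrine cells, where alpha, beta and PP cells depend on it.

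NeuroD1 and Neurog3 bind E-boxes, short DNA elements of the form CANNTG. The 250 bases before the annotated start are shown for 3 members that later stand for different patterns: Isl1 and Pax6, which went together from cell to cell, and Nkx2-2, whose reads were also found in most cells rich in acinar transcripts. Each window reads 5′ to 3′ on the strand of the gene, from RefSeq on GRCm38.p6 (mm10). Capitals mark CAGATG, its complement CATCTG, or CAGCTG, which were searched on both strands and do not overlap each other.
Isl1, chr13:116309689-116309938, minus strand: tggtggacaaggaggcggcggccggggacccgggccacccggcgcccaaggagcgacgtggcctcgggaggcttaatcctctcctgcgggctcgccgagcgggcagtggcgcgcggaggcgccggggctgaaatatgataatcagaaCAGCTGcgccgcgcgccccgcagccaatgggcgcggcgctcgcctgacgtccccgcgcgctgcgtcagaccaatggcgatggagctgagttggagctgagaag
Pax6, chr2:105668646-105668895, plus strand: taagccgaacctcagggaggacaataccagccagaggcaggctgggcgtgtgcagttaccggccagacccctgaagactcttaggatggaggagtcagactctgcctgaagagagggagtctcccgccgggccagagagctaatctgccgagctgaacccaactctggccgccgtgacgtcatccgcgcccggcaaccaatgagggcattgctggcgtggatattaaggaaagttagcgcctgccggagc
Nkx2-2, chr2:147186403-147186652, minus strand: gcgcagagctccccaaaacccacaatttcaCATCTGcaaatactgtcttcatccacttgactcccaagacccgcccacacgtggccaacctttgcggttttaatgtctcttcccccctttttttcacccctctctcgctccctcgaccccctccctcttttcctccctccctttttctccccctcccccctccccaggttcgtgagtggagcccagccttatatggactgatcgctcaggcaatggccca
The Isl1 window holds 1 CAGCTG and the Nkx2-2 window 1 CATCTG, and the Pax6 window has none of these letters. Of 32851 promoter windows of this length, 14.4% hold CAGATG or CATCTG, 4271 windows (13.001%) hold CAGCTG and 66.2% hold any CANNTG. These matches describe the letters only. A window was listed for 5 of the 7 members, and Insm1 and St18 are named only.

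In the GENCODE vM21 annotation of mm10 the members lie at chr13:116298281-116309689 (Isl1, minus strand), chr2:105668900-105697364 (Pax6, plus), chr2:147177546-147194243 (Nkx2-2, minus), chr2:146221921-146225020 (Insm1, plus), chr10:51677756-51730432 (Rfx6, plus), chr2:181763332-181827797 (Myt1, plus) and chr1:6487231-6860940 (St18, plus). Reads were summed over the exons of each gene. Nothing in the sources used here states whether strand was used in the counting. The antisense gene Nkx2-2os overlaps 278 exonic bases of Nkx2-2 (9.67% of its exonic length), so antisense reads there cannot be told apart from Nkx2-2 reads. Neurod1 shares 7.37% of its exonic length with Cerkl, on the same strand.

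Total reads per cell ranged from 25769 to 2787999. The median was 344128 in Ngn3KO and 572730 in Neurod1OE cells of set 2, and 728074 in Ngn3KO and 695079 in Neurod1OE cells of set 3. No animal or litter is labelled, so a genotype within a set is 1 sample and no test between groups could be made. Values are reads of the summed cells scaled to a total of 1000000 (CPM), and single-cell values are given beside them. Intervals are 95% exact Poisson for CPM and 95% exact Clopper-Pearson for shares of cells, and cover counting error only. A gene was taken as measured in a comparison when, in either group, it reached 10 CPM and was read in 10% or more of cells, and counted as higher or lower when the groups differed by at least 2-fold. In summed reads, fewer cells with a transcript and less transcript per cell cannot be told apart, so both are given.

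Cells were sorted into states by 2 marker genes that are no members: Gcg-high cells had at least 1000 CPM of Gcg (glucagon, the alpha-cell hormone), Cpa1-high cells at least 1000 CPM of Cpa1 (carboxypeptidase A1, an acinar enzyme), and the rest had both or neither. Set 2 was almost wholly Gcg-high, with 98.05% of Ngn3KO cells (all but 4) and 94.9% of Neurod1OE cells (all but 6). Set 3 was not: its Ngn3KO cells were 29 Cpa1-high and 1 Gcg-high, and its Neurod1OE cells were 31 Gcg-high, 48 neither, 15 Cpa1-high and 1 both. Just under the Gcg limit, at 500 to 1000 CPM, lay 3 Ngn3KO and 3 Neurod1OE cells of set 2 and 0 Ngn3KO and 4 Neurod1OE cells of set 3, and just over it, at 1000 to 2000 CPM, 5 Ngn3KO and 9 Neurod1OE cells of set 2 and none of set 3 (0). For Cpa1, 1 Ngn3KO and 2 Neurod1OE cells of set 2 lay just under the limit, and 1 Neurod1OE cell of set 2 and 4 of the 15 Cpa1-high Neurod1OE cells of set 3 just over it. The label of the set 3 Ngn3KO cells names overexpression of Neurod1, but the gene stood at 30.4 CPM there, against 217 CPM in Neurod1OE cells of set 3. Among Cpa1-high cells of set 3 Neurod1 stood at 14.3 CPM in cells labelled Ngn3KO and 37.8 CPM in Neurod1OE cells. The median Cpa1-high cells had 7.61 and 26.6 CPM, so the level was lower in cells labelled Ngn3KO within this state too. The part of the label and of the Cpa1-high state in the low level was not tested. In set 2 Neurod1 stood at 292 CPM in Ngn3KO and 332 CPM in Neurod1OE cells. Because their label could not be checked, the set 3 cells are called cells labelled Ngn3KO. Neurog3 was scarce in every group (3.06 to 17.8 CPM), the highest value resting for 69.9% on 1 Neurod1OE cell of set 3 with 3053 CPM (5.39 CPM without it), and since the deleted stretch is not given, its reads do not check the label.

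Reads of the members were also counted in cells high for single hormones, with member values given below for Gcg, insulin and Sst only. At 1000 CPM or more, taking all groups together, there were 348 cells with Gcg, 16 with insulin (Ins1 and Ins2 summed), 5 with Sst (somatostatin), 90 with Ppy (pancreatic polypeptide) and 46 with Ghrl (ghrelin), and some cells counted in several. All 16 insulin-high cells had reads of Isl1, Pax6, Nkx2-2, Insm1 and St18, and 15 of them of Rfx6 and of Myt1. Isl1 and Pax6 had reads in all 348 Gcg-high cells, and Rfx6, the least often read there, in 321. Nkx2-2 was the exception among the 5 Sst-high cells, where it had reads in 3 and stood at 33.7 CPM, against 117.1 CPM in Gcg-high cells. St18 stood at 508 CPM in those 5 cells, against 127.7 CPM in Gcg-high cells, and Insm1 at 273 CPM in Sst-high and 272 CPM in insulin-high cells, against 148.2 CPM in Gcg-high cells. With 5 and 16 cells from several groups these are descriptions only. Having reads does not set hormone cells apart. Among 29 Cpa1-high cells labelled Ngn3KO of set 3, Isl1 had reads in 15 and Nkx2-2 in 25. The name pan-endocrine was therefore not tested by these counts.

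In set 2 the members stood at similar levels in both genotypes. None of the 7 differed by 2-fold (0 of 7), where 2.53% of the 10009 genes measured did in either direction. Their log2 ratios of Ngn3KO over Neurod1OE lay between -0.39 and 0.09 with a median of 0.06, beside a median of -0.07 over all genes.

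Isl1, the most abundant member, had 750.1 CPM in Ngn3KO cells (interval 744 to 756) and 844 CPM in Neurod1OE cells (838 to 851). Its lowest, median and highest cells had 28.5, 708 and 2892 CPM in Ngn3KO and 7.89, 697 and 4386 CPM in Neurod1OE cells. The medians nearly coincided and the ranges overlapped throughout, so the lower sum in Ngn3KO cells came with the same middle cell and a lower top. Pax6 had 615 CPM in Ngn3KO and 664 CPM in Neurod1OE cells. Its single cells ran from 26.7 through a median of 496 to 2487 CPM in Ngn3KO and from 13.99 through 601 to 2470 CPM in Neurod1OE cells. Every cell of set 2 had at least 10 CPM of Pax6, and all but 1 Neurod1OE cell had that of Isl1.

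The other 5 members were less uniform. Nkx2-2 reached 10 CPM in 97.6% of Ngn3KO (interval 94.4 to 99.2) and 98.3% of Neurod1OE cells (93.96 to 99.8), with sums of 117.2 CPM in Ngn3KO and 110.6 CPM in Neurod1OE cells. Its median cell had 103.4 CPM in Ngn3KO and 104.97 CPM in Neurod1OE cells. Insm1 stood at 149.4 CPM in Ngn3KO and 143.2 CPM in Neurod1OE cells, Rfx6 at 107.9 CPM in Ngn3KO and 100.9 CPM in Neurod1OE cells, and Myt1 at 94.6 CPM in Ngn3KO and 88.996 CPM in Neurod1OE cells. All 3 ran from 0 in some cells to several times the median in others of the same genotype. In the highest cell, Insm1 had 953 CPM in Ngn3KO and 819 CPM in Neurod1OE cells. The share of cells at 10 CPM was 89.3% in Ngn3KO and 89.7% in Neurod1OE cells for Insm1, 85.9% in Ngn3KO and 82.1% in Neurod1OE cells for Rfx6, and 87.3% in Ngn3KO and 94.02% in Neurod1OE cells for Myt1. Thus these genes, unlike Isl1 and Pax6, were below that level in a visible minority of cells of both genotypes.

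St18, whose protein belongs with Myt1 to the small MYT family of zinc-finger factors, had the largest difference of the 7, a log2 ratio of -0.39. It stood at 114.7 CPM in Ngn3KO cells (112.3 to 117.1) and 150.9 CPM in Neurod1OE cells (148.2 to 153.7). The lowest cell had 0 in both genotypes, the median cell 57.8 CPM in Ngn3KO and 101.7 CPM in Neurod1OE cells, and the highest 1143 CPM in Ngn3KO and 919 CPM in Neurod1OE cells. At least 10 CPM was found in 83.4% of Ngn3KO (77.6 to 88.2) and 88.9% of Neurod1OE cells (81.7 to 93.9). Ngn3KO cells were shallower, and after thinning all cells to 165298 reads, St18 was read in 91.95% of Ngn3KO and 93.9% of Neurod1OE cells. Among Gcg-high cells alone its ratio was -0.46, and that of the other 6 members lay between -0.23 and 0.05. There, 0 of 7 passed 2-fold, beside 2.36% of all genes measured.

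**Figure D1:**
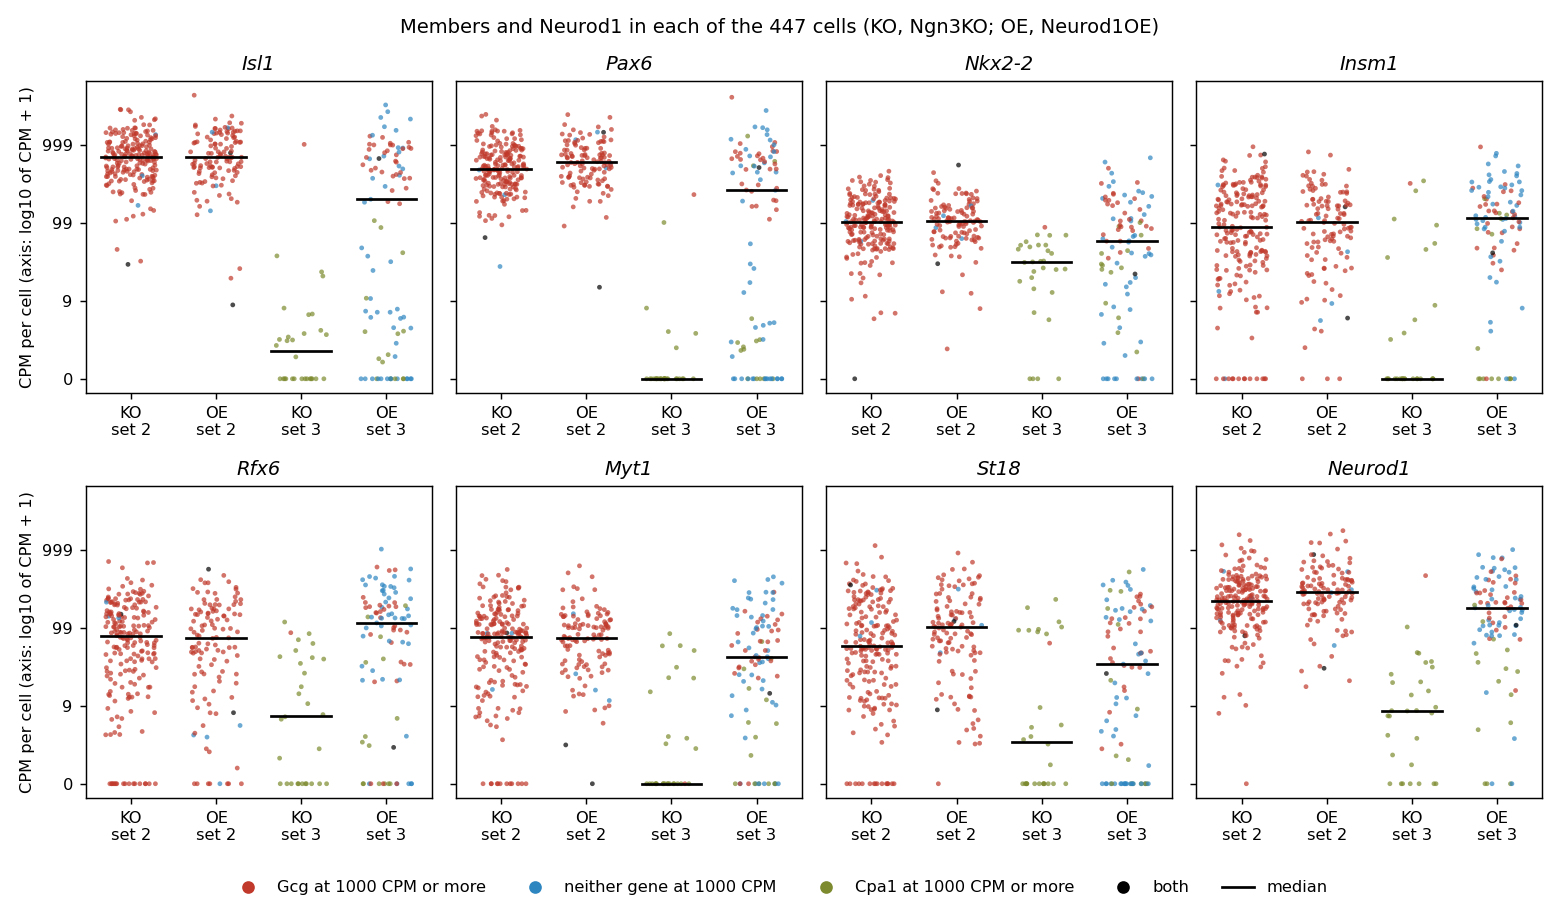
CPM of each member and of Neurod1 in every cell (axis: log10 of CPM + 1), for Ngn3KO and Neurod1OE cells of sets 2 and 3, with a line at the median cell. In set 2 the genotypes overlap in every panel, with Isl1 medians of 708 CPM in Ngn3KO and 697 CPM in Neurod1OE cells, whereas in set 3 the cells labelled Ngn3KO lie mostly at or near 0 except for Nkx2-2.

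Set 2 also holds a division that the labels do not name, by the predicted gene Gm12338, a split made from the data at 10 CPM. Of Ngn3KO cells 52.7% were positive and 97 cells negative, and of Neurod1OE cells 51 were positive and 66 negative. The split moved with sex in 1 genotype: 48 of the 51 positive and 0 of the 66 negative Neurod1OE cells were male, while 0 Ngn3KO cells of set 2 were. St18 followed it in both genotypes. In Ngn3KO cells it had 155.6 CPM in Gm12338-positive and 62.8 CPM in Gm12338-negative cells, a log2 ratio of 1.30, and in Neurod1OE cells 206 CPM in positive and 93.7 CPM in negative cells, a log2 ratio of 1.13. It was the only member past 2-fold in either (1 of 7 each), where 6.72% of genes were higher in positive Ngn3KO cells and 6.98% in positive Neurod1OE cells. Hormone genes moved with the split as well. In positive Ngn3KO cells 5 of 8 were at least 2-fold higher and 1 lower, with a median log2 ratio of 1.87, and in positive Neurod1OE cells 5 of 8 were higher and 0 lower, with a median of 1.32. Of 7 measured acinar markers 6 were lower in positive Neurod1OE cells, and of 3 measured in Ngn3KO cells 0 were lower and 1 higher. Acinar reads of Neurod1OE cells of set 2 were concentrated in few cells: the markers summed to 544 CPM with a median cell of 52.7 CPM, and 1 cell held 64.4% of the Cpa1 reads. Lower levels were found for 4.75% of all genes in positive Ngn3KO and 7.19% in positive Neurod1OE cells. The part of sex, of hormone state and of acinar RNA in the St18 levels was not tested.

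Between genotypes within the subsets, the ratios of some members pointed opposite ways. Among Gm12338-positive cells the log2 ratios of Ngn3KO over Neurod1OE were 0.38 for Insm1, 0.43 for Rfx6 and -0.35 for Isl1. Among negative cells they were -0.40 for Insm1, -0.20 for Rfx6 and 0.05 for Isl1. St18 was lower in Ngn3KO cells of both subsets, at -0.41 in positive and -0.57 in negative cells, and so was Pax6, at -0.15 and -0.09. None of these reached 2-fold (0 of 7 in each subset), beside 7.75% of genes in positive and 4.92% in negative cells.

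In set 3 the members stood far lower in cells labelled Ngn3KO, and 6 of 7 were at least 2-fold lower, beside 31.8% of the 10477 genes measured that were lower and 37.7% past 2-fold in either direction. The plain totals put the median of all genes itself at -0.56 on the log2 scale, and the member ratios are to be read against that value. Their median was -2.69. With edgeR's TMM factors the median of all genes was -0.06 and with DESeq2 size factors 0.05, and 5 of 7 members were then 2-fold lower, with Nkx2-2 at -0.93 and -0.83 and St18 at -0.40 and -0.30. With TMM 58.4% and with DESeq2 52.2% of all genes past 2-fold were lower, against 84.2% with plain totals.

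**Figure D2:**
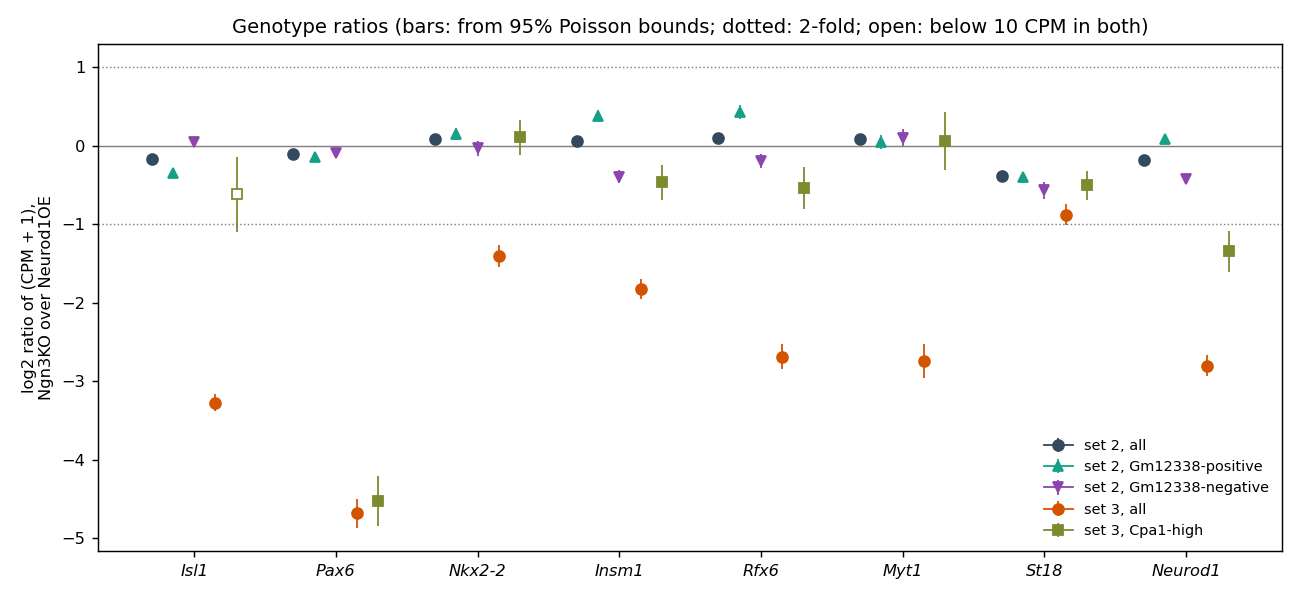
Log2 ratio of (CPM + 1) of Ngn3KO over Neurod1OE cells for each member, in sets 2 and 3 and in subsets of their cells, with bars from the 95% Poisson bounds and dotted lines at 2-fold; open points were below 10 CPM in both groups. The ratios of set 2 lie between the dotted lines, and those of all set 3 cells lie below the lower line except for St18 at -0.88. Among Cpa1-high cells Pax6 stands apart at -4.52, a ratio that rests on few cells.

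Isl1 and Pax6 differed most. Isl1 had 40.2 CPM in cells labelled Ngn3KO and 396 CPM in Neurod1OE cells of set 3, and Pax6 had 11.8 CPM in cells labelled Ngn3KO and 327 CPM in Neurod1OE cells. The single Gcg-high cell labelled Ngn3KO held 90.1% of the Isl1 and 69.2% of the Pax6 reads of its group, as well as 54.6% of the Neurod1 and 99.1% of the Gcg reads. Without the top cell of each group the log2 ratio moved to -6.15 for Isl1 and -6.06 for Pax6. The lowest, median and highest cells had 0, 1.30 and 1025 CPM of Isl1 among cells labelled Ngn3KO, and 0, 201.3 and 3288 CPM among Neurod1OE cells. For Pax6 they had 0, 0 and 231 CPM among cells labelled Ngn3KO, and 0, 263 and 4127 CPM among Neurod1OE cells. Neurod1OE cells were thus spread over the whole range while the other group sat at its bottom with a few exceptions. Isl1 reached 10 CPM in 13.3% (3.76 to 30.7) of cells labelled Ngn3KO and 61.1% (50.5 to 70.9) of Neurod1OE cells, and Pax6 in 6.67% (0.818 to 22.1) and 64.2% (53.7 to 73.8).

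Insm1, Rfx6 and Myt1 were intermediate, with log2 ratios of -1.82, -2.69 and -2.74. Insm1 stood at 38.6 CPM in cells labelled Ngn3KO and 139.3 CPM in Neurod1OE cells, and reached 10 CPM in 26.7% and 84.2% of them. Rfx6 stood at 19.9 CPM in cells labelled Ngn3KO and 133.9 CPM in Neurod1OE cells, with 43.3% and 78.9% of cells at 10 CPM. Myt1 stood at 10.3 CPM in cells labelled Ngn3KO and 74.7 CPM in Neurod1OE cells, with 26.7% and 76.8%. The median cell labelled Ngn3KO had no read of Insm1 or Myt1.

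Nkx2-2 and St18 were the least different, at -1.41 and -0.88. Nkx2-2 stood at 34.8 CPM in cells labelled Ngn3KO and 93.95 CPM in Neurod1OE cells. Its cells ran from 0 through a median of 30.5 to 87.3 CPM in cells labelled Ngn3KO, and from 0 through 58.1 to 688 CPM in Neurod1OE cells. At least 10 CPM was found in 80% (61.4 to 92.3) of cells labelled Ngn3KO and 76.8% (67.1 to 84.9) of Neurod1OE cells, so the shares did not differ beyond counting error while the upper range did. After thinning, Nkx2-2 was read in 88.9% of 27 cells labelled Ngn3KO and 84.9% of 86 Neurod1OE cells. St18 stood at 39.2 CPM in cells labelled Ngn3KO and 72.9 CPM in Neurod1OE cells, with 33.3% and 62.1% of cells at 10 CPM.

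All 30 cells labelled Ngn3KO of set 3 were male and Gm12338-negative, whereas 64 of 95 Neurod1OE cells were male and 24 Gm12338-negative. Among male cells, and among Gm12338-negative cells (a comparison added after seeing the data), 7 of 7 members were at least 2-fold lower, beside 34.6% and 38.2% of genes. St18 was at -1.50 among Gm12338-negative cells. Acinar-rich cells filled the group labelled Ngn3KO, so its composition and its label cannot be told apart in these sums, and the states were compared next.

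Within Neurod1OE cells of set 3, the members were first compared in the summed reads of Gcg-high cells and of cells with neither marker. In these sums none differed by 2-fold (0 of 7), beside 31.5% of 10838 genes, 12.3% higher and 19.2% lower. Sums do not show whether the single cells were alike. The log2 ratios of Gcg-high over neither cells were 0.60 for Isl1, 0.64 for Pax6, 0.76 for St18 and 0.48 for Nkx2-2, and -0.40 for Insm1, -0.30 for Rfx6 and -0.86 for Myt1, beside a median of -0.18 over all genes. Myt1 stood at 66.2 CPM in Gcg-high and 120.8 CPM in neither cells.

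Sums hid how the cells differed. Isl1 had 648 CPM in Gcg-high and 427 CPM in neither cells, but its median cell had 696 CPM in Gcg-high and 8.29 CPM in neither cells. Pax6 likewise had a median of 614 CPM in Gcg-high and 20.7 CPM in neither cells. All 31 Gcg-high cells reached 10 CPM of Isl1 and of Pax6, against 23 and 26 of the 48 neither cells. Insm1 and Rfx6 did not follow: Insm1 reached 10 CPM in 30 of 31 Gcg-high and 43 of 48 neither cells, with medians of 128.2 CPM in Gcg-high and 154.3 CPM in neither cells. Rfx6 reached it in 28 of 31 Gcg-high and 42 of 48 neither cells, with medians of 134.8 CPM in Gcg-high and 139.7 CPM in neither cells.

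Among the 28 other islet transcription factors of a fixed list, 22 were measured in this comparison, 5 of them higher in Gcg-high and 8 higher in neither cells. The alpha-cell factors Irx1 (168.04 CPM in Gcg-high and 11.6 CPM in neither cells) and Irx2 (247 CPM in Gcg-high and 34.01 CPM in neither cells) were among the higher. Pax4, a beta- and delta-lineage factor (4.93 CPM in Gcg-high and 73.4 CPM in neither cells), the progenitor factor Sox9 (10.4 and 214 CPM) and Sox11 (22.4 and 997 CPM) were among the lower. Duct and trunk markers summed to 880 CPM in Gcg-high and 3347 CPM in neither cells. Their median cells were closer, at 843 CPM in Gcg-high and 1039 CPM in neither cells, where the highest cell had 17264 CPM. Pan-endocrine markers such as the chromogranins summed to 17161 CPM in Gcg-high and 6592 CPM in neither cells, with median cells of 16500 and 4804 CPM. Of 8 immune markers 0 reached 10 CPM in any state of set 3, and of 8 endothelial markers 1 or 2 did, with Cdh5 at 0 in every state. Markers of other lineages were high in single neither cells. Of 8 neural and Schwann markers 6 reached 10 CPM in neither cells and 4 in Gcg-high cells. Summed per cell, they had medians of 72.1 CPM in neither and 80.1 CPM in Gcg-high cells, but the highest neither cell had 3702 CPM. Of 9 mesenchyme markers 2 reached 10 CPM in neither cells, with 19.8 CPM in the median and 3767 CPM in the highest cell.

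**Figure D3:**
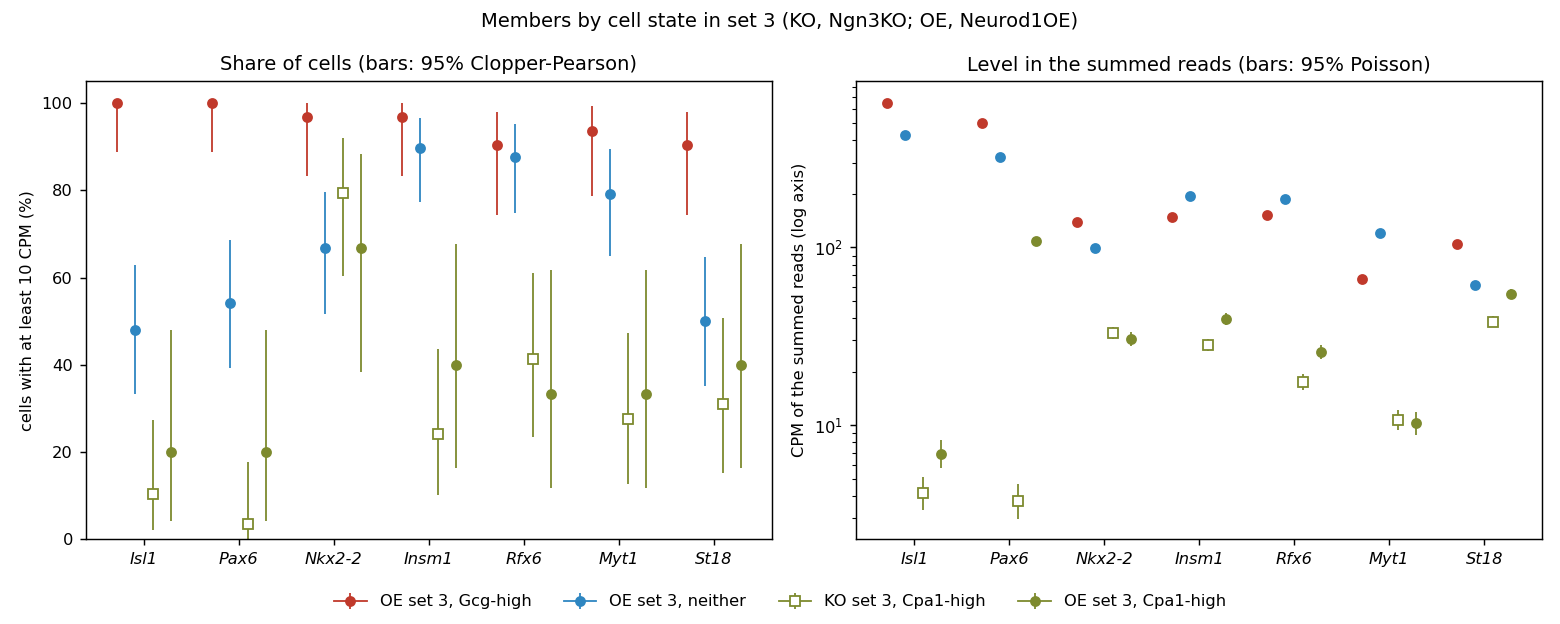
Share of cells with at least 10 CPM of each member (left, in %, with 95% Clopper-Pearson bars) and level in the summed reads (right, CPM on a log axis, with 95% Poisson bars), by state of the set 3 cells. Isl1 and Pax6 reach 10 CPM in 31 of 31 Gcg-high Neurod1OE cells but 3 and 1 of 29 Cpa1-high cells labelled Ngn3KO, while Nkx2-2 reaches it in 23 of those 29.

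Compared with Cpa1-high cells of the same genotype, Gcg-high Neurod1OE cells had higher levels of 6 of the 7 members, beside 26% of 10682 genes. The log2 ratios of Gcg-high over Cpa1-high cells were 6.36 for Isl1, 2.58 for Myt1, 2.51 for Rfx6, 2.19 for Pax6, 2.15 for Nkx2-2, 1.87 for Insm1 and 0.92 for St18. Without the top cell of each gene and state, an alternative added after seeing the data, St18 was at 1.48 and all 7 passed 2-fold. That was the highest St18 value of the alternatives run, and the lowest was 0.06, so its ratio was not settled. Neither cells set against Cpa1-high cells also had 6 of 7 higher, again beside 26% of genes, with Isl1 at 5.76, Myt1 at 3.44 and St18 at 0.16. Of the other islet factors, 21 were measured against Cpa1-high cells, and 13 were higher and 3 lower in Gcg-high cells, where 19.3% of all genes were lower.

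The members differed in how much remained in Cpa1-high cells, taking the level in Gcg-high Neurod1OE cells as 100%. Gcg itself was read in 28 of 29 Cpa1-high cells labelled Ngn3KO and 15 of 15 Cpa1-high Neurod1OE cells, at 0.0432% and 0.0901% of its Gcg-high level. Since Gcg defined the states, these low shares are bounded by the sorting rule and are no independent background for the members. Isl1 lay at 0.638% in cells labelled Ngn3KO and 1.06% in Neurod1OE cells, and Pax6 at 0.754% in cells labelled Ngn3KO. Pax6 lay at 21.7% in Cpa1-high Neurod1OE cells, where 1 cell held 46.6% of its reads, and at 12.6% without that cell. Its median Cpa1-high cell had 0 CPM in cells labelled Ngn3KO and 1.57 CPM in Neurod1OE cells, so that sum rested on few cells.

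Nkx2-2 was spread over most Cpa1-high cells instead. It stood at 32.9 CPM in 29 cells labelled Ngn3KO (interval 30.5 to 35.5) and 30.6 CPM in 15 Neurod1OE cells (28.1 to 33.3), or 23.6% and 21.9% of the level in Gcg-high Neurod1OE cells. The median Cpa1-high cell had 30.2 CPM among cells labelled Ngn3KO and 25.6 CPM among Neurod1OE cells, and 23 of 29 and 10 of 15 cells reached 10 CPM. No cell labelled Ngn3KO was above 69.5 CPM, whereas the median Gcg-high Neurod1OE cell had 106.04 CPM. Nkx2-2 was thus present at a low level in most of these cells, while the median cell of both genotypes had less than 2 CPM of Isl1 and of Pax6.

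The remaining members were carried by fewer Cpa1-high cells. Insm1 lay at 19.2% of its Gcg-high level in cells labelled Ngn3KO and 26.8% in Neurod1OE cells, with a median cell of 0 in both. Rfx6 lay at 11.5% in cells labelled Ngn3KO and 16.95% in Neurod1OE cells, where 1 cell held 60.8% of its reads, and Myt1 at 16.2% and 15.48%. St18 lay at 36.5% in cells labelled Ngn3KO and 52.3% in Neurod1OE cells, but reached 10 CPM in only 9 of 29 and 6 of 15 cells. Of the 29 cells labelled Ngn3KO, 26 had neither Isl1 nor Pax6 at 10 CPM, and of these 22 had Nkx2-2, 11 Rfx6, 8 Myt1, 7 St18 and 5 Insm1 at that level. Of the 15 Neurod1OE cells, 11 had neither Isl1 nor Pax6 at 10 CPM, and 8 of these had Nkx2-2.

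Set against each other, the Cpa1-high cells of the labelled genotypes differed by 2-fold for Pax6 (log2 ratio -4.52, and -5.48 without the top cells) and not for the other 5 members measured, beside 18% of 9587 genes that were lower and 22.3% past 2-fold in either direction. The others were at 0.10 for Nkx2-2, 0.06 for Myt1, -0.47 for Insm1, -0.54 for Rfx6 and -0.51 for St18, and the signs of Rfx6 and St18 turned without the top cells (0.43 and 0.01). Isl1 was below 10 CPM in both groups. The Pax6 ratio rested on few cells, since Pax6 reached 10 CPM in only 1 of 29 cells labelled Ngn3KO and 3 of 15 Neurod1OE cells. The groups were not alike in other genes. Acinar markers summed to 48863 CPM in cells labelled Ngn3KO and 19304 CPM in Neurod1OE cells, with median cells of 39817 and 17950 CPM. Pan-endocrine markers summed to 713 and 3350 CPM, but the median cells were close, at 120.5 CPM in cells labelled Ngn3KO and 137.4 CPM in Neurod1OE cells. The median total was 711280 reads in cells labelled Ngn3KO and 1375505 in Neurod1OE cells. A single mesenchyme-rich cell labelled Ngn3KO had 17994 CPM of 9 summed mesenchyme markers. The part of these differences in the member values was not tested.

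The 48 neither cells held a graded set of member combinations. In 19 of them both Isl1 and Pax6 were below 10 CPM, in 20 both were at 10 CPM or more, and in 9 only 1 of them was. Of the 19 without either, 16 had at least 10 CPM of Insm1, 14 of Rfx6, 12 of Myt1, 8 of Nkx2-2 and 2 of St18. Their median Insm1 was 261 CPM and their median Rfx6 131.7 CPM. The 19 cells were chosen for low Isl1 and Pax6, so the lack of these 2 is no result. Among all 48 neither cells 43 had Insm1 and 42 Rfx6 at that level, so carrying them was not particular to the 19. St18 was found in 2 of the 19 cells, against 18 of the 20 cells with both. The median Neurod1 of the 19 cells was 105.4 CPM, against 307 CPM in the 20 cells with both. Their median Chga (chromogranin A, a granule protein) was 44.9 CPM, against 1258 CPM. Spp1 and Sox9, duct and progenitor genes, had medians of 582 and 152.5 CPM in the 19 cells, against 27.4 and 7.56 CPM in the 20 cells.

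Of the 20 cells with both, 19 had Insm1, 19 Rfx6, 18 Myt1, 18 St18 and 16 Nkx2-2 at 10 CPM. The 9 cells with only 1 of Isl1 and Pax6 had the highest median Nkx2-2, 228 CPM, and were marked by median Pax4 and Fev (a factor of endocrine precursors) of 181.7 and 285 CPM, both between 0 and 76.6 CPM in the other classes of neither cells. Of the 48 neither cells, 24 had both Insm1 and St18, 19 Insm1 only and 0 St18 only. For Rfx6 with St18 the counts were 24, 18 and 0. For Rfx6 with Nkx2-2, 32 cells held both, 10 Rfx6 only and 0 Nkx2-2 only. Insm1 reached 10 CPM in 43 and Rfx6 in 42 of the 48 cells, so few cells lacked them. Other states of Neurod1OE cells of set 3 did not repeat this. Nkx2-2 was without Rfx6 in 3 Gcg-high and 6 Cpa1-high cells, and St18 was without Rfx6 in 3 Gcg-high and 2 Cpa1-high cells. These combinations were noticed in the data and carry no test.

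**Figure D4:**
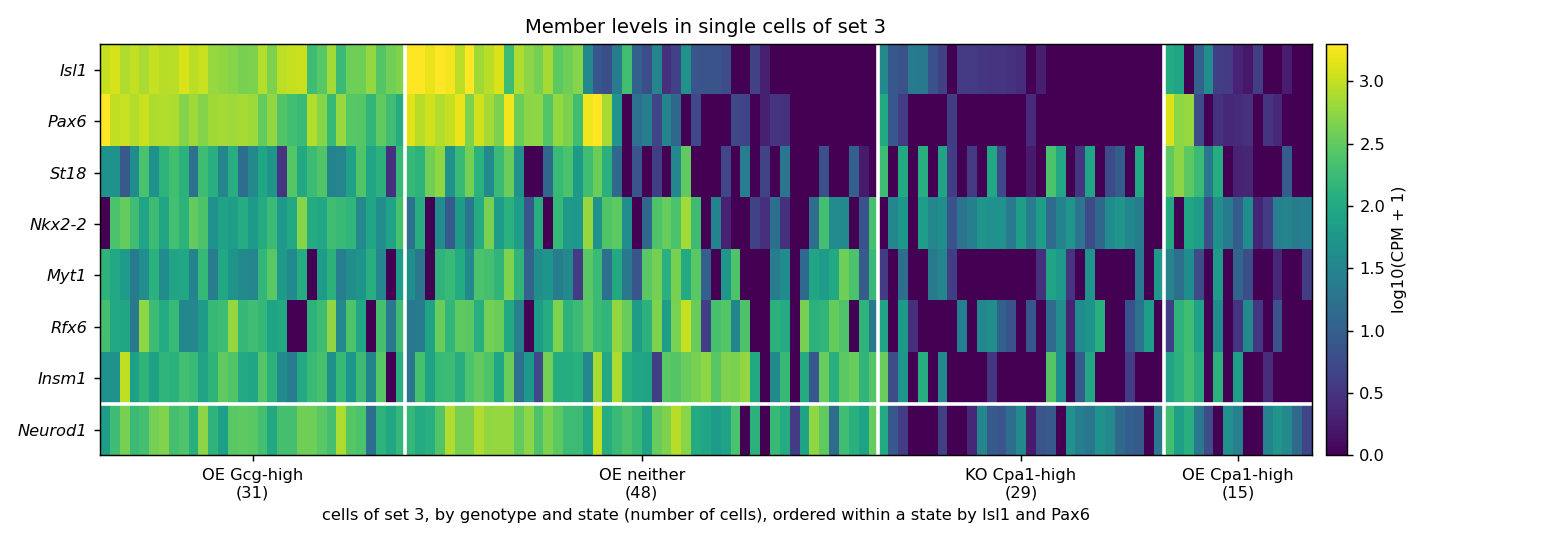
Member levels in single cells of set 3 (1 column per cell, 1 row per gene, colour giving the level), arranged by genotype and state and, within a state, by Isl1 and Pax6. The row of Nkx2-2 is filled in most Cpa1-high columns, and among the 48 neither cells the 19 without Isl1 and Pax6 keep Insm1 in 16 and Rfx6 in 14 but St18 in 2.

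Counted cell by cell at 10 CPM, all 7 members were present together in 55.6% of Ngn3KO (48.5 to 62.5) and 63.2% of Neurod1OE cells of set 2. In set 3 they were together in 0 of 30 cells labelled Ngn3KO, where the limit set by 3 counts of the total is 10.0% and the upper Clopper-Pearson bound 11.6%, and in 38.9% of Neurod1OE cells. Among Neurod1OE cells of set 3 they were complete in 23 of 31 Gcg-high, 14 of 48 neither and 0 of 15 Cpa1-high cells. The median number of members per cell was 7 in both genotypes of set 2. In set 3 it was 5 in neither Neurod1OE cells, and 2 in Cpa1-high Neurod1OE cells and 1 in Cpa1-high cells labelled Ngn3KO.

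Member number went with the Neurod1 level in Neurod1OE cells of set 3. In the 8 cells below 10 CPM of Neurod1 the median was 1.5 members, in the 20 cells at 10 to below 100 CPM it was 3, in the 41 cells at 100 to below 300 CPM it was 7, and in the 26 cells at 300 CPM or more it was 6. The complete set was found in 0, 2, 23 and 12 cells of these classes. So the number did not go up further at the highest Neurod1 levels. Median Isl1 was 0.784, 5.08, 445 and 603 CPM over the classes, while median Rfx6 was 1.21, 104.3, 133.6 and 132.9 CPM, so the median of Rfx6 at 10 to below 100 CPM of Neurod1 was nearer to that of the higher classes than the median of Isl1 was. By share of cells Rfx6 was lower there, at 10 CPM in 60% of the cells of that class, against 87.8% and 92.3% in the next classes. The classes also differ in state: 5, 8, 2 and 0 of their cells were Cpa1-high and 0, 4, 19 and 8 Gcg-high. The correlations within single states are given next.

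Across single cells the rank correlation (Spearman's rho of CPM) with Neurod1 was positive for every member among all 95 Neurod1OE cells of set 3: 0.53 for Myt1, 0.46 for Nkx2-2, 0.44 for Isl1 and for Pax6, 0.36 for Insm1 and 0.33 for Rfx6 and for St18. The 5th to 95th percentile of 10054 genes was -0.32 to 0.28. Among the 48 neither cells the values were 0.51 for Myt1, 0.43 for Nkx2-2, 0.42 for Pax6, 0.41 for Isl1 and 0.34 for St18, but 0.17 for Rfx6 and 0.13 for Insm1. Among the 31 Gcg-high cells they were between -0.09 and 0.29. The cells of a group differ in read depth, and correlations are given as descriptions.

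In set 2 the members hardly followed Neurod1. Among all Neurod1OE cells Nkx2-2 had a rho of 0.33 and Insm1 of 0.30, above the 95th percentile of all genes (0.16), and the other 5 lay between -0.08 and 0.13. Among Ngn3KO cells Nkx2-2 had 0.15 (95th percentile 0.12) and the others -0.06 to 0.04. Nkx2-2 was thus above that percentile in all cells of both genotypes. In Ngn3KO cells this held among the Gm12338-positive cells (0.27, 95th percentile 0.16) and not among the 97 negative cells (-0.03, 95th percentile 0.17), while in Neurod1OE cells it held in both subsets (0.31 and 0.39). In Neurod1OE cells of set 2 Neurod1 itself had a rho of -0.28 with the total reads of the cell.

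The members fell into pairings among themselves in set 3. Over the 95 Neurod1OE cells rho was 0.72 for Isl1 with Pax6, 0.67 for Pax6 with St18 and 0.58 for Isl1 with St18. Insm1 with Rfx6 had 0.44, Rfx6 with Myt1 0.41, Insm1 with Myt1 0.40 and Nkx2-2 with Myt1 0.45. Isl1 with Insm1 had 0.02. The values among the 48 neither cells were 0.74 for Isl1 with Pax6, 0.70 for Pax6 with St18, 0.64 for Isl1 with St18 and -0.13 for Isl1 with Insm1. There Insm1 with Rfx6 had 0.21, Insm1 with Myt1 0.26 and Rfx6 with Myt1 0.30, close to Rfx6 with St18 at 0.27 and Pax6 with Myt1 at 0.25. Nkx2-2 had 0.49 with Myt1 and 0.47 with Rfx6. Among the 31 Gcg-high cells of set 3 the pairs among Isl1, Pax6 and St18 were weak, with 0.17 for Isl1 with Pax6, -0.09 for Pax6 with St18 and 0.00 for Isl1 with St18. Among Gcg-high cells of set 2, pair values were low throughout, from -0.09 to 0.18 in Ngn3KO and from -0.14 to 0.28 in Neurod1OE cells.

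**Figure D5:**
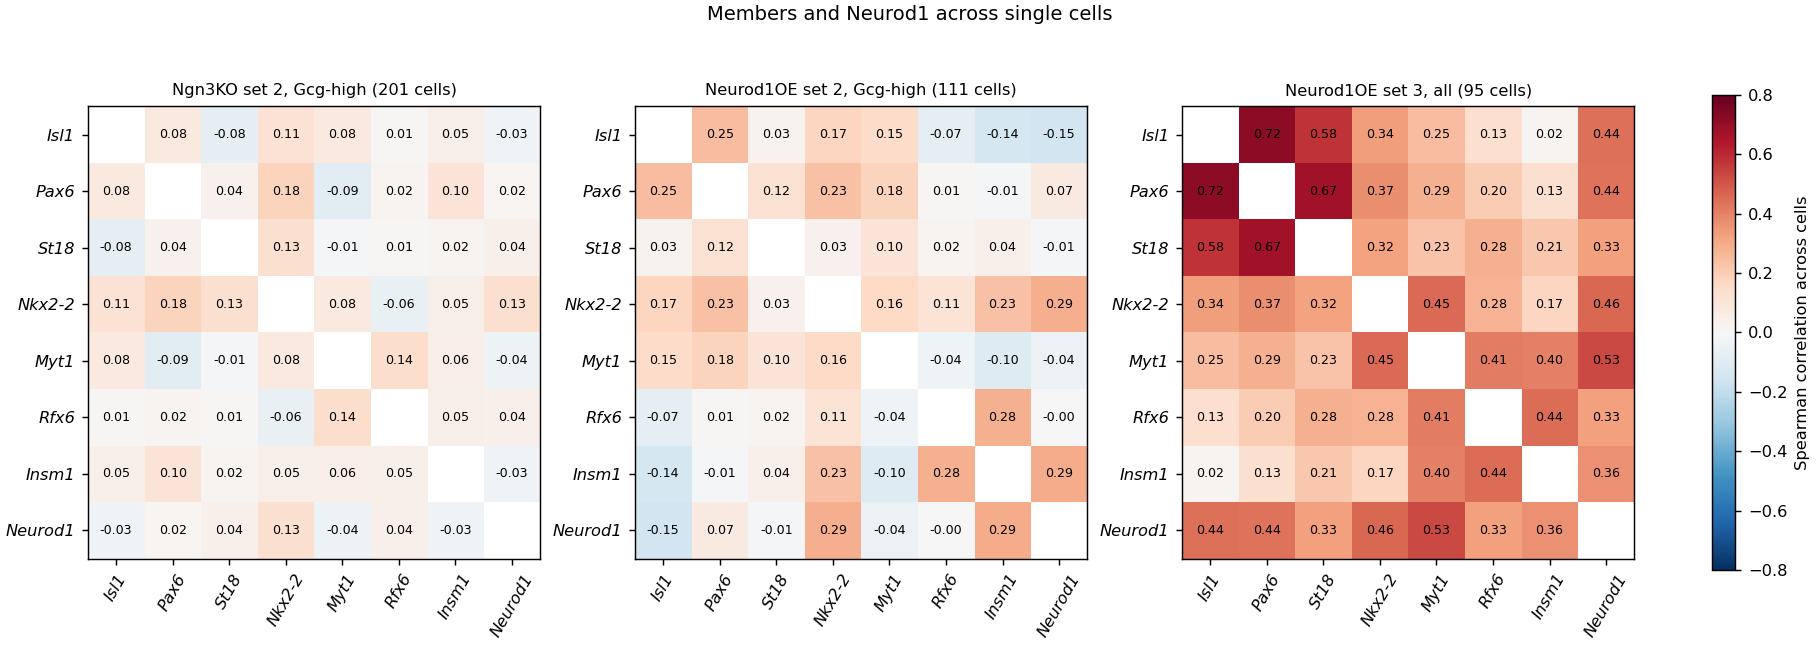
Spearman's rho across single cells for each pair of members and Neurod1 (colour and number), in groups of cells named above each panel with their cell number. Isl1, Pax6 and St18 form the strongest block among Neurod1OE cells of set 3 (0.58 to 0.72), and the same pairs are weak among Gcg-high cells of set 2.

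The genes ranked closest to each member, among 9595 genes over the 95 Neurod1OE cells of set 3, differed between members. Isl1 was closest to Pcsk2, the prohormone convertase of alpha cells (0.78), Lrpprc (0.78), Scgn, a calcium-binding protein of endocrine cells (0.77), Zdbf2 (0.76) and Slc7a14 (0.74), and Pax6 ranked 9. Pax6 was closest to Scg3, a granule protein (0.81), Sphkap (0.79), Pam, which amidates peptide hormones (0.78), Slc7a14 (0.78) and Scgn (0.77), with Isl1 at rank 17. St18 was closest to Aplp1 (0.71), Scg3 (0.69), Disp2 (0.67), Pam (0.67) and Pax6 (0.67, rank 5).

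The other members had weaker neighbours. Myt1 was closest to Meis3 (0.55), then to Neurod1 (0.53, rank 2), Ptprn2 (0.50), Dynlt1b (0.50) and Tmx4 (0.50). Nkx2-2 was closest to Vwa5b2 (0.59), Ap1s2 (0.57), Actl6b (0.55), Glrx (0.55) and Hdac6 (0.54), with Neurod1 at rank 27 and Myt1 at rank 30. Insm1 was closest to Tox3 (0.48), Gse1 (0.48), Cplx2 (0.46), Necab2 (0.46) and Hpca (0.46), with Rfx6 at rank 8. Among the genes closest to Rfx6 were Ube2b (0.49), Vwa5b2 (0.48), Pomt2 (0.48) and Necab2 (0.46), with Insm1 at rank 10. Over Gcg-high cells of set 2 these same pairs were weak: Isl1 with Pcsk2 had 0.25 in Ngn3KO and 0.12 in Neurod1OE cells, Pax6 with Scg3 0.02 in Ngn3KO and 0.24 in Neurod1OE cells, and Myt1 with Neurod1 -0.04 in Ngn3KO and -0.04 in Neurod1OE cells.

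Per kilobase (kb) of annotated exon, Isl1 led in Gcg-high cells. The length used merges all annotated exons of a gene, 11.7 kb for Pax6 and 3.1 kb for Insm1. The order of genes with close values therefore depends on the annotation. In set 2 Isl1 had 189.5 CPM per kb in Ngn3KO and 222 CPM per kb in Neurod1OE cells. Pax6 followed at 53.3 in Ngn3KO and 58.5 in Neurod1OE cells, Insm1 at 47.9 and 49.1, Nkx2-2 at 40.998 and 39.5, Rfx6 at 26.5 and 26.8, St18 at 17.6 and 24.3, and Myt1 at 13.2 and 13.1 CPM per kb. The order was the same in both genotypes. In Gcg-high Neurod1OE cells of set 3 the levels were 163.6 CPM per kb for Isl1, 48.5 for Nkx2-2, 47.5 for Insm1, 42.6 for Pax6, 38.03 for Rfx6, 16.2 for St18 and 9.21 for Myt1, so Nkx2-2, Insm1 and Pax6 lay close together and changed places. Between the sets, set 3 over set 2 Gcg-high Neurod1OE cells had log2 ratios from -0.58 (St18) to 0.50 (Rfx6), with 0 of 7 past 2-fold beside 15.7% of genes.

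Close relatives of the members were mostly scarce. Isl2, Insm2, Nkx2-3, Nkx2-4 and Rfx4 were below 1 CPM in every group. Myt1l, the third MYT family gene, stood at 52.4 CPM in Ngn3KO and 65.3 CPM in Neurod1OE cells of set 2, and at 1.495 CPM in cells labelled Ngn3KO and 22.6 CPM in Neurod1OE cells of set 3. Rfx3, which like Rfx6 serves islet cells, stood at 60.9 CPM in Ngn3KO and 72.01 CPM in Neurod1OE cells of set 2, and at 37.3 CPM in cells labelled Ngn3KO and 100.9 CPM in Neurod1OE cells of set 3. Of 13 relatives, 0 of 4 measured passed 2-fold between genotypes in set 2, and 4 of 6 were lower in cells labelled Ngn3KO of set 3. The 28 other islet factors had 0 of 19 past 2-fold in set 2, with a median log2 ratio of 0.01, and 18 of 22 lower in cells labelled Ngn3KO of set 3, with a median of -1.96. Sox9 was not among these 18, at 143.3 CPM in cells labelled Ngn3KO and 126.2 CPM in Neurod1OE cells.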

How the data were processed

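Single cells were read by Smart-seq3, and the authors deposited raw counts, whole numbers of reads per gene and cell, in 1 matrix per set. Per the submitters' processing notes, Trimmomatic 0.39, HISAT2 2.1.0, featureCounts 2.0.0 and mm10 were used. Molecular identifiers are not among the values, so reads are not independent molecules. A set of 6 rows without a gene name and the ERCC spike-ins were left out of totals, and the unnamed rows held 0.0026% of reads. No column of per-sample values was left unused (0), and no cell had counts identical to another (0).

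Counts of the cells of a group were summed and scaled to 1000000 (CPM). Log2 ratios were taken after adding 1 CPM, with intervals from the outer Poisson bounds. With 1 sample a group no test was run. Sensitivity to depth was checked by thinning to 165298 reads, which left out 31 Ngn3KO and 2 Neurod1OE cells of set 2, and 3 Ngn3KO and 9 Neurod1OE cells of set 3. Cells were called male from 4 Y-linked genes and Xist. Summing and counting were tested on simulated data. Scaling factors alone came from edgeR 4.0.16 and DESeq2 1.42.0 under R 4.3.3. The rest was computed in Python 3.11.15 (numpy 2.4.6, scipy 1.17.1, matplotlib 3.10.9). Named genes were the members, Neurod1, Neurog3, Gcg and Cpa1, other islet factors past 2-fold or among the 4 highest, relatives of the members, and the 5 genes closest to each member by rho, predicted genes left out. Not every gene so named is reported here. Chga, Chgb, Pcsk2, Scgn, Spp1, Gm12338, other hormone genes and Nkx2-2os were outside this rule where they appear on other grounds. Members and gene lists were chosen with earlier results of these data known. Alternatives tried were other scaling, totals without hormone or enzyme genes, the mean of single-cell CPM, a pseudocount of 10 CPM, no filter on low values, other state limits of 500 and 2000 CPM, thinned cells, subsets of cells and sums without top cells.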

Additional observations from a re-analysis of the deposited data

Results flagged for a closer look

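For 4 members the log2 ratio of Ngn3KO over Neurod1OE had opposite signs in the sets, and the difference between the sets was not tested. For Nkx2-2 it was -1.41 in set 3 and 0.08 in set 2, a difference of -1.49. For Insm1 it was -1.82 in set 3 and 0.06 in set 2, a difference of -1.89. For Rfx6 it was -2.69 in set 3 and 0.09 in set 2, a difference of -2.78. For Myt1 it was -2.74 in set 3 and 0.09 in set 2, a difference of -2.83. The ratios of set 2 were all well under 2-fold, and the set 3 cells labelled Ngn3KO were 29 of 30 Cpa1-high.

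In set 2, the ratios of 4 members had opposite signs in Gm12338-positive and Gm12338-negative cells, again with no test of the difference. For Insm1 the ratio was 0.38 in positive and -0.40 in negative cells, a difference of 0.78, and for Rfx6 0.43 in positive and -0.20 in negative cells, a difference of 0.63. For Isl1 it was -0.35 in positive and 0.05 in negative cells, a difference of -0.39, and for Nkx2-2 0.15 in positive and -0.03 in negative cells, a difference of 0.18.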

How the results depend on the processing

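The counts of members past 2-fold held within 1.5 times under every alternative run: 0 of 7 in set 2 throughout, 5 to 7 of 7 lower in cells labelled Ngn3KO of set 3, 0 of 7 between Gcg-high and neither cells, and 6 to 7 of 7 higher in Gcg-high than in Cpa1-high cells. Counts over all genes moved more, and the shift with scaling comes from the different reference level each sets. In set 2, 86 genes were higher in Ngn3KO cells and 2.53% of genes passed 2-fold in either direction, against 25 higher and 34 lower with a pseudocount of 10 CPM, and 460 higher and 624 lower with no filter on low values. In set 3, 624 were higher and 3331 lower in cells labelled Ngn3KO, against 1369 and 1922 with TMM factors, 1579 and 1721 with DESeq2 size factors, 365 and 2019 with the higher pseudocount, and 1121 and 5632 with no filter. Of the single values, 97 ratios stayed within their counting interval and most, 53.8%, moved beyond it, 354 correlations stayed and 66 moved, and 38 shares stayed and 18 moved. No called ratio changed sign. No paired analysis was possible because the numbers in the titles name single cells and no test was made. Depth limits low values: in the shallowest cell, with 25769 reads, 1 read is more than 10 CPM.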

Other observations

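Summed levels of 3 endocrine genes were lower in Cpa1-high cells labelled Ngn3KO than in Cpa1-high Neurod1OE cells of set 3, and Nkx2-2 was at a similar level in both. As a percentage of the level in Gcg-high Neurod1OE cells of set 3, Nkx2-2 lay at 23.6% in Cpa1-high cells labelled Ngn3KO and 21.9% in Cpa1-high Neurod1OE cells. Pcsk2, a prohormone convertase, lay at 0.0540% in cells labelled Ngn3KO and 2.63% in Neurod1OE cells, Scgn at 0.189% in cells labelled Ngn3KO and 8.95% in Neurod1OE cells, and the granule protein gene Chgb at 5.09% in cells labelled Ngn3KO and 30.3% in Neurod1OE cells. Without the top Neurod1OE cell of each gene the Neurod1OE values were 0.941% for Pcsk2, 4.94% for Scgn and 17.5% for Chgb. Without the top cell labelled Ngn3KO the values there were 0.0449%, 0.132% and 2.96%. The median Neurod1OE cell lay at 0.133% of the Gcg-high median for Pcsk2, 0.321% for Scgn and 4.48% for Chgb, so the Neurod1OE sums rested on few cells. The median cell labelled Ngn3KO lay at 0% for Pcsk2 and Scgn and 1.86% for Chgb. These 3 genes were chosen after their values were seen.

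The single Gcg-high cell labelled Ngn3KO in set 3 carried 6 of the 7 members. It had 1025 CPM of Isl1, 322 CPM of Insm1, 231 CPM of Pax6, 87.3 CPM of Nkx2-2, 86.01 CPM of Rfx6 and 62.9 CPM of St18. It had no read of Myt1, and 469.9 CPM of Neurod1.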
